A study of Drosophila melanogaster with 24 samples.

Results

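Genes of the *Drosophila* germline were followed over sex, tissue and diet in 24 RNA-seq libraries. These were vas, nos, osk, bcd, orb, piwi, aub, AGO3, bam and bgcn, 10 of the 16727 genes in the count tables. They were chosen by name as genes known from the ovary and testis, with earlier results of these data already known. All flies were w1118 adults, a laboratory strain with white eyes. The 8 groups of 3 libraries each were male heads, male bodies, female heads and female bodies, on a regular diet (RD) or on a high fat diet (HFD, the RD with 20% coconut oil). Both diets were given for a week, and the labels of all 8 groups, RD included, carry the same age of 5 to 7 days, worded for the flies put on HFD. By the methods the flies were newly eclosed or slightly older, then spent a day on standard food before the diets. That matches the labelled age at neither the start nor the end of the diets. A head library was made from a pool of about 100 heads. A body library was made from a pool of headless bodies (10 by the labels, while the methods give another number), so it held gonads together with gut, fat body, muscle and cuticle. Whether the females had mated was not given in the sources used here. By the methods, the sexes were separated as adults, a day after transfer to a new vial.

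In flies the germline is set apart by germ plasm, a cytoplasm laid down at the posterior of the egg. Oskar builds germ plasm, the helicase Vasa is one of its core parts, and the translational repressor Nanos acts there and in germline stem cells, while bicoid mRNA waits at the anterior for head and thorax patterning of the embryo. The Argonaute proteins Piwi, Aubergine and AGO3 carry PIWI-interacting RNAs (piRNAs) that silence transposons in the gonad. Orb is an RNA-binding protein that controls translation in the oocyte and has transcripts in the testis. Bam, with its partner Bgcn, drives the daughters of germline stem cells into differentiation in the ovary and limits the divisions of spermatogonia in the testis.

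Gene counts per library ranged from 13.4 to 25.7 M (M for mega), and the male median of 16.3 M was below the female median of 19.7 M. Levels are given as CPM, the count of a gene per M of counts in its library, scaled by edgeR's TMM factors, which ran from 0.794 (male head HFD 3) to 1.09. Levels of different genes are compared only as TPM, transcripts per M, which also divides by gene length. The sex labels matched the data: roX1, a male RNA of dosage compensation, was at 495 CPM or more in males and at 13.1 CPM or less in females. The male and female libraries came as separate tables, so a difference between sexes and a difference between tables cannot be told apart. A few libraries stood apart. Male body RD 3 held 2822 CPM and male body HFD 3 held 497 CPM of the 13 photoreceptor marker genes, against 102 to 145 CPM in the other bodies. Male head HFD 3 held 5147 CPM of the stem cell and cyst differentiation list, against 1786 to 2887 CPM in the other heads, and male head HFD 4 held 98.5 CPM of the 16 late spermatogenesis markers, against 13.8 to 19.0 CPM in the other male heads.

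The genes lie at these positions of the BDGP6 (dm6) assembly, with the whole annotated gene given. On chromosome arm 2L, vas spans 15061656 to 15074311, piwi 10982205 to 10987420 and aub 10997819 to 11001476. On 3R, osk spans 8935126 to 8938395, bcd 6755842 to 6759466, nos 19157238 to 19160202, orb 23260610 to 23280856 and bam 25243039 to 25245109. AGO3 spans 23554593 to 23689640 on 3L, and bgcn spans 23853270 to 23858921 on 2R. For 8 of the 10 genes the length in the count table equalled the exon length of the reference. The row of vas is an exception, with 5131 bases against 2285 in the reference. The gene solo shares 563 exon bases and its strand with vas and matched no row, so the vas row may hold reads of solo and its level is uncertain. lncRNA:osk shares 2251 exon bases and its strand with osk, 78.5% of the exon bases of osk, and matched no row. The osk row may therefore hold reads of lncRNA:osk, and its level is uncertain too. Reads of other overlapping pairs could be split in ways that were not stated. Exon bases on the opposite strand are shared by nos with CG11779 (269) and Nsun5 (104), and by osk with asRNA:CR44020 (162). The same holds for piwi with SCAR (191), bam with CG11854 (224) and aub with TTLL4A (79). The strand setting of the counting was not given in the sources used here.

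**Figure D1:**
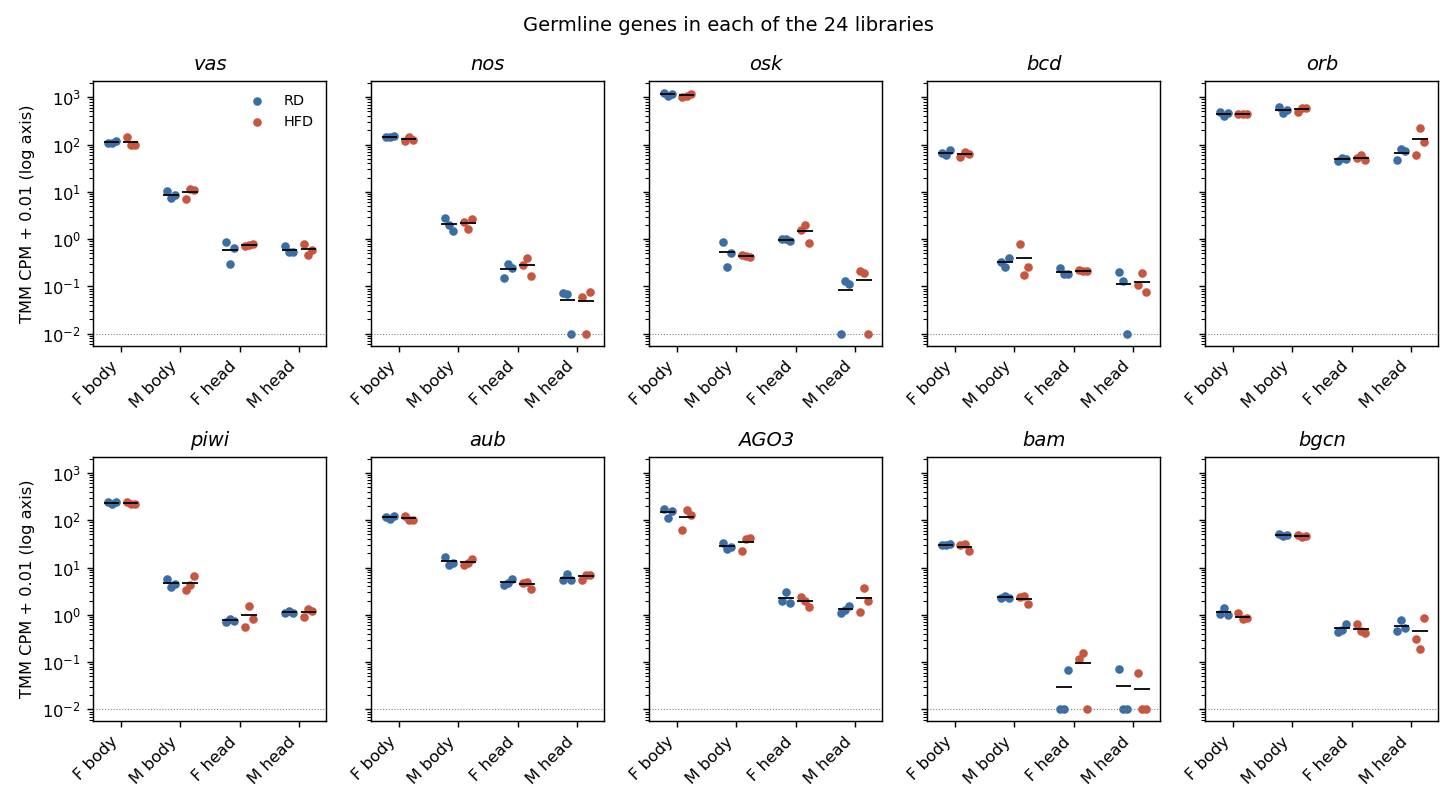
Levels of the 10 germline genes in each of the 24 libraries, in TMM-scaled CPM plus 0.01 on a log axis. Each point is a library (blue RD, red HFD), black bars are the means of 3 libraries, F and M stand for female and male, and the dotted line marks 0 counts. All genes except orb and bgcn were highest in female bodies, bgcn was highest in male bodies, and orb was at 399 to 618 CPM in the bodies of both sexes.

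osk, whose row may include lncRNA:osk, had the highest level per length among the 10 genes in female bodies, with a median of 746 TPM (673 to 844 TPM in 6 libraries). In female bodies it was at 1048, 1153 and 1224 CPM on RD and at 1034, 1049 and 1184 CPM on HFD. In male bodies it was at 0.246, 0.497 and 0.859 CPM on RD and at 0.405, 0.421 and 0.444 CPM on HFD. Every female body library was therefore above every male one by more than 3 orders of magnitude, while the ranges of the diets overlapped within each sex. Here and below, the share of all genes without overlap between groups was not computed. A lack of overlap is therefore given as a description only. The female against male difference was a log2 fold change of 11.04 (SE 0.29) on RD and 11.38 (SE 0.25) on HFD, with adjusted p of 1.23e-09 and 2.94e-07 by edgeR's quasi-likelihood test with Benjamini-Hochberg adjustment, the test used for every adjusted p here. On RD, 8 of the 10 genes were called higher in female bodies (adjusted p under 0.05), while 35.1% of the 13004 genes tested were. One gene, bgcn, was lower, while 49.3% of the genes tested were. osk and bcd passed the filter on low counts through the female bodies only, so the filter by itself selected them as higher there, and of the 8 genes that passed it in both sexes 6 were higher and 1 was lower. In these bulk pools fewer germ cells and less RNA per cell cannot be told apart, so each such difference is one of the RNA in the pool.

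The other maternal mRNAs of the axis were likewise highest in female bodies. By group mean, the male bodies came next for bcd and nos, whereas for osk the female heads did. For nos every male body was above every female head. For bcd the male bodies on HFD, at 0.169 to 0.767 CPM (2 to 19 reads), overlapped the female heads on RD, at 0.173 to 0.235 CPM. bcd was at 59.9, 67.6 and 74.8 CPM in female bodies on RD and at 54.8, 64.1 and 70.8 CPM on HFD, and at no more than 0.767 CPM in any male body. Its difference was 7.68 (SE 0.21, adjusted p = 1.34e-09) on RD and 7.16 (SE 0.46, adjusted p = 5.61e-06) on HFD, all log2 fold changes of female against male bodies. nos was at 142, 147 and 152 CPM in female bodies on RD and at 117, 124 and 142 CPM on HFD. Male bodies held 1.44, 1.96 and 2.79 CPM of nos on RD and 1.60, 2.26 and 2.67 CPM on HFD, counts of 19 to 56 reads per library. The sexes did not overlap, and the difference was 6.17 (SE 0.20, adjusted p = 4.54e-09) on RD and 5.95 (SE 0.23, adjusted p = 6.73e-07) on HFD.

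vas, whose row may include solo, had levels in female bodies of 106, 107 and 119 CPM on RD and 97.1, 97.8 and 141 CPM on HFD. Female body HFD 2 gave the highest value. Male bodies held 7.37, 8.45 and 10.4 CPM on RD and 7.02, 11.0 and 11.3 CPM on HFD. The lowest female library was above the highest male library, and the log2 difference was 3.68 (SE 0.14, adjusted p = 8.54e-09) on RD and 3.63 (SE 0.24, adjusted p = 7.11e-06) on HFD.

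The 3 piRNA-binding Argonautes were all higher in female than in male bodies, but by different amounts. piwi, which acts in the nucleus and in the somatic cells of the gonad as well as in germ cells, was at 218, 245 and 246 CPM in female bodies on RD and at 3.81, 4.38 and 5.80 CPM in male bodies on RD. Its log2 difference was 5.68 (SE 0.17, adjusted p = 2.30e-09). aub, whose product cleaves transposon RNA in the cytoplasm of germ cells, was at 107, 118 and 122 CPM in female bodies and at 11.5, 12.2 and 16.8 CPM in male bodies on RD. Its log2 difference was 3.11 (SE 0.15, adjusted p = 4.72e-08). AGO3, the partner of Aub in the amplification cycle of piRNAs, was at 109, 160 and 174 CPM in female bodies and at 24.1, 26.7 and 33.7 CPM in male bodies on RD. Its log2 difference was 2.41 (SE 0.20, adjusted p = 2.22e-06). The sexes did not overlap for any of the 3, but nothing is read from this without the share over all genes.

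On HFD the log2 differences between female and male bodies were 5.70 (SE 0.27) for piwi, 3.19 (SE 0.16) for aub and 1.86 (SE 0.38) for AGO3, with adjusted p of 1.49e-06, 1.95e-06 and 0.0030. AGO3 was the most variable of the Argonautes among female bodies. Its 3 HFD libraries were at 60.6, 130 and 163 CPM, and the low value was that of female body HFD 2, the same library that was high in vas. Since each gene is divided by its own length, the makeup of the trio can be set side by side as TPM ratios within a library. piwi was at 1.92 to 2.12 times the TPM of aub in the female bodies on both diets, and at 0.278 to 0.440 times in the male bodies. AGO3 was at 0.464 to 1.51 times the TPM of aub in female bodies and at 1.84 to 3.18 times in male bodies. Neither ratio overlapped between the sexes. In TPM the order was piwi, AGO3 and aub in female bodies, with medians of 144, 87.6 and 71.9, and AGO3, aub and piwi in male bodies, with medians of 13.7, 5.96 and 2.02. In female bodies the ranges of AGO3 (35.6 to 108 TPM) and aub (65.6 to 77.4 TPM) overlapped.

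bam and bgcn, whose products act together, went opposite ways between the sexes. bam was at 29.4, 29.7 and 31.7 CPM in female bodies on RD and at 22.7, 30.0 and 30.7 CPM on HFD. In male bodies bam was at 2.24, 2.26 and 2.46 CPM on RD and at 1.70, 2.42 and 2.44 CPM on HFD. Its log2 difference between female and male bodies was 3.72 (SE 0.16, adjusted p = 2.43e-08) on RD and 3.74 (SE 0.25, adjusted p = 7.35e-06) on HFD.

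bgcn was at 0.964, 1.02 and 1.41 CPM in female bodies on RD and at 0.791, 0.845 and 1.07 CPM on HFD, while male bodies held 45.7, 49.5 and 52.1 CPM on RD and 43.3, 47.0 and 47.8 CPM on HFD. The log2 difference of female against male bodies was -5.42 (SE 0.17, adjusted p = 3.10e-09) on RD and -5.57 (SE 0.22, adjusted p = 6.70e-07) on HFD. In TPM, bgcn was at 0.012 to 0.022 times bam in female bodies and at 8.07 to 12.6 times bam in male bodies. Pym lies on the same strand within the span of bgcn and shares no exon base with it. Its row was at 22.0 to 38.7 CPM in female bodies and at 4.79 to 6.32 CPM in male bodies, the opposite order to that of bgcn.

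orb was the exception among the 10, with no called difference between female and male bodies. It was at 399, 458 and 486 CPM in female bodies on RD and at 466, 540 and 618 CPM in male bodies on RD, ranges that overlapped. On HFD it was at 439, 442 and 452 CPM in female bodies and at 489, 582 and 599 CPM in male bodies, where every male library was above every female one. The log2 difference was -0.26 (SE 0.13, 95% interval -0.56 to 0.05, adjusted p = 0.0997) on RD and -0.22 (SE 0.15, 95% interval -0.56 to 0.12, adjusted p = 0.198) on HFD. DESeq2 called orb lower in female bodies on both diets, with adjusted p of 0.0481 and 0.0182, and edgeR did so without male body RD 2 (-0.40) and without male body HFD 2 (-0.45). Per length, orb was the highest of the 10 genes in male bodies, with a median of 81.0 TPM (75.8 to 91.6 TPM), followed by bgcn at 17.1 TPM and AGO3 at 13.7 TPM. In female bodies its median was 90.9 TPM, the fourth highest.

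On HFD, 8 of the 10 genes were again higher in female bodies and 1 was lower, with 32.4% and 43.1% of the 13018 genes tested called higher and lower. osk and bcd again passed the filter through the female bodies only, and of the 8 genes that passed it in both sexes 7 were called. The median log2 difference of the 10 genes was 3.70 on RD and 3.69 on HFD, while the median over all genes tested was -0.40 and -0.23. With other scalings the median over all genes lay between -0.46 and -0.24 on RD and between -0.40 and -0.09 on HFD, and no gene of the 10 changed direction under them.

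**Figure D2:**
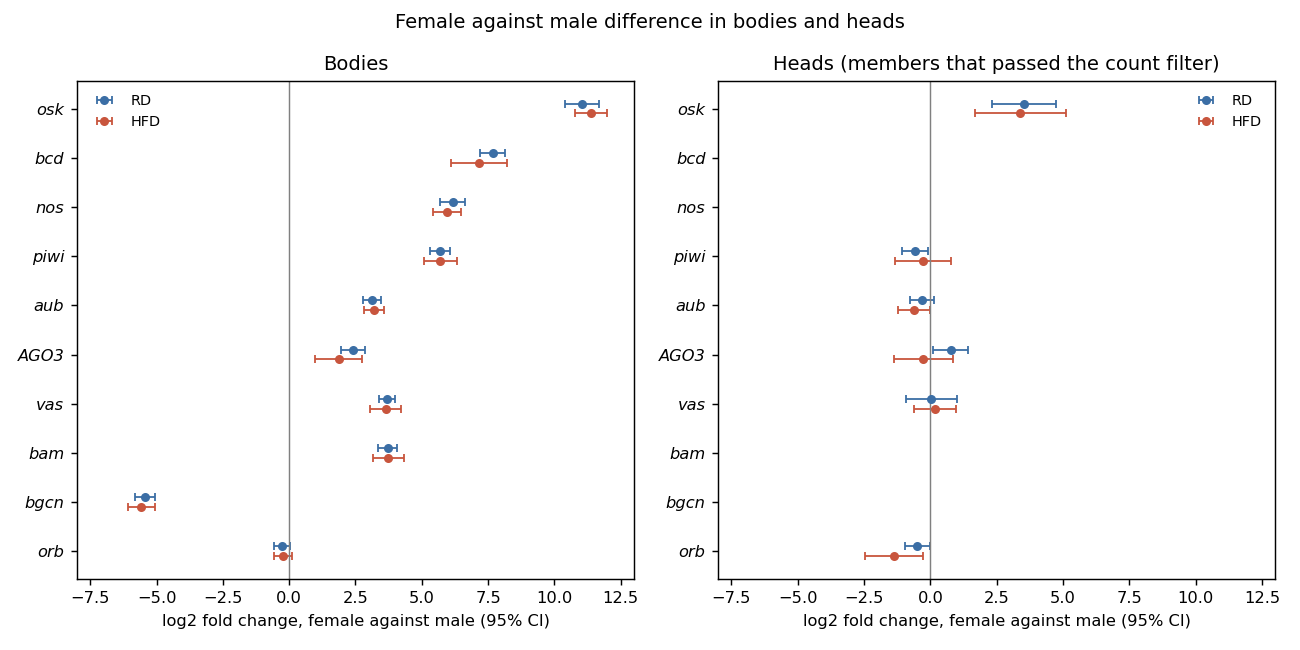
Log2 fold change of female against male libraries for the 10 germline genes, in bodies (left) and heads (right), on RD (blue) and HFD (red), with 95% confidence intervals from edgeR and 3 libraries per group. In bodies osk lay highest at 11.04 on RD, bgcn lowest at -5.42, and the intervals of orb crossed 0; in heads only the 6 genes that passed the count filter are drawn, and osk lay at 3.52 on RD.

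In heads the 10 genes were low, orb excepted. orb was at 43.9, 49.6 and 51.4 CPM in female heads on RD, 47.8, 72.7 and 80.4 CPM in male heads on RD, 47.1, 52.8 and 58.8 CPM in female heads on HFD, and 59.0, 113 and 220 CPM in male heads on HFD. The highest value belonged to male head HFD 3, the library that stood apart in the stem cell and cyst differentiation list. aub came next with group means of 4.39 to 6.47 CPM. piwi, AGO3, vas and bgcn had group means of 0.44 to 2.26 CPM in heads. nos, bcd and bam had 0 to 8 reads in every head library.

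The filter on low counts kept 6 of the 10 genes for the comparison of female and male heads: vas, osk, orb, piwi, aub and AGO3. On RD osk alone was called, as higher in females. It passed the filter through the female heads only, where it was higher, while nos and bcd, also low in male heads, were left out. Over all genes, 4.35% of the 10151 tested were higher and 3.41% lower. osk was at 0.920, 0.983 and 0.989 CPM in female heads on RD (16 to 21 reads per library) and at 0, 0.103 and 0.119 CPM in male heads (0 to 2 reads). Its log2 difference was 3.52 (SE 0.51, 95% interval 2.31 to 4.73, adjusted p = 0.0148). The call was lost in 4 of the 6 fits that left out a library, those without male head RD 3 or without any of the female head RD libraries, with adjusted p up to 0.0874. orb had a log2 difference of -0.49 (SE 0.20, adjusted p = 0.157) on RD and was called lower in females without male head RD 1 (-0.70). Beside this, the summed level of the 20 eggshell genes, which follicle cells of the ovary express, was 13.5 to 15.2 CPM in female heads on RD and 5.77 to 8.79 CPM in male heads, and their part in the osk difference was not tested.

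On HFD none of the 6 genes was called in heads, where 1.33% of the 10281 genes tested were higher and 0.447% lower in females. At an unadjusted p under 0.05, 3 of the 6 passed, beside 25.3% of all genes tested. osk and vas passed the count filter through the female heads only, where osk was higher. osk was at 0.822, 1.56 and 1.97 CPM in female heads and at 0, 0.179 and 0.198 CPM in male heads, groups that did not overlap, with a log2 difference of 3.39 (SE 0.72, adjusted p = 0.0793). DESeq2 called osk higher and orb lower in female heads on HFD, and so did edgeR without male head HFD 2 (4.05 and -1.72). The log2 difference of orb was -1.37 (SE 0.45, adjusted p = 0.164) and was -0.75 without male head HFD 3. nos, which failed the filter, had 12 reads in the female heads and 2 in the male heads on RD, a ratio of 5.58 with a 95% counting interval of 1.24 to 51.4, and 16 against 2 reads on HFD, a ratio of 6.39 with an interval of 1.50 to 57.3. These intervals cover counting error only.

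Bodies, which hold the gonads, were compared with heads, which hold none. In females all 10 genes were higher in bodies on RD, where 45.5% of the 10725 genes tested were higher and 41.3% lower, and all 10 were higher on HFD, where 44.7% of 10794 genes were higher and 40.6% lower. In males osk and bcd failed the count filter. The other 8 were higher in bodies on RD (42.8% of 13046 genes higher, 30.7% lower) and 7 of them on HFD (34.0% of 12813 genes higher, 29.3% lower). Part of these counts was set by the filter, since several genes passed it through the bodies only. Those that passed it in heads as well numbered 5 in females on RD, all higher in bodies, 6 in females on HFD, all higher, 4 in males on RD (orb, piwi, aub and AGO3), all higher, and the same 4 in males on HFD, of which 3 were higher.

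Among females the genes fell into a graded series. Female heads on RD held 0.063% of the CPM of female bodies for bam (1 read in heads), 0.084% for osk and 0.150% for nos. They held 0.288% for bcd, 0.319% for piwi and 0.533% for vas. The share was 1.53% for AGO3, 4.26% for aub, 10.8% for orb and 44.8% for bgcn. The summed eggshell genes stood at 1.36% by the same measure. In edgeR's fit the log2 differences of female bodies against female heads on RD were 10.20 (SE 0.13) for osk, 9.37 (SE 0.14) for nos, 4.55 (SE 0.11) for aub and 3.21 (SE 0.11) for orb, with adjusted p of 1.39e-09, 1.56e-09, 4.59e-09 and 2.57e-08. Of these, nos passed the count filter through the female bodies only, so the filter by itself selected it as higher there. bam had 1954 reads in the female bodies on RD and 1 read in the heads, a ratio of 1690 with a 95% counting interval of 303 to 66777.

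bgcn was the least different in females. It was at 0.424, 0.463 and 0.633 CPM in female heads on RD and at 0.411, 0.443 and 0.644 CPM on HFD, all below the lowest female body library of the same diet. Its log2 difference was 1.16 (SE 0.32, adjusted p = 0.0085) on RD and 0.84 (SE 0.31, adjusted p = 0.0318) on HFD. On both diets bgcn passed the count filter through the female bodies only, where it was higher. The call did not hold with DESeq2 on either diet, with adjusted p of 0.0506 and 0.191. On HFD it was also lost with all genes of at least 1 count (0.87), without female body HFD 2 (0.72), without female head HFD 3 (0.75) and without female head HFD 4 (0.71).

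In males the series had another order, though on RD bam was lowest in both sexes. Male heads on RD held 0.910% of the body CPM for bam (1 read in heads), 1.18% for bgcn, 1.98% for nos and 4.58% for AGO3. The share was 6.67% for vas, 12.4% for orb, 23.9% for piwi and 44.6% for aub. osk stood at 13.9% and bcd at 32.0%, on 0 to 3 reads in each male head library. The log2 difference of male bodies against male heads on RD was 6.39 (SE 0.22, adjusted p = 1.73e-07) for bgcn, 4.43 (SE 0.23, adjusted p = 1.19e-06) for AGO3, 2.06 (SE 0.24, adjusted p = 1.30e-04) for piwi and 1.16 (SE 0.22, adjusted p = 0.0018) for aub. bgcn passed the count filter through the male bodies only, where it was higher, while AGO3, piwi and aub passed it in both tissues. aub was at 5.37, 5.46 and 7.20 CPM in male heads and at 11.5, 12.2 and 16.8 CPM in male bodies on RD, which did not overlap. On HFD it was at 5.53, 6.81 and 7.07 CPM in heads and at 11.5, 12.2 and 15.0 CPM in bodies, with a log2 difference of 0.64 (SE 0.28, adjusted p = 0.0876) that was called with DESeq2 (0.80), total counts (0.94), all genes of at least 1 count (0.99), all 24 libraries in 1 fit and without male head HFD 3 (0.89). orb differed by 1.74 (SE 0.48, adjusted p = 0.0150) on HFD, a call that was lost without male head HFD 4 (1.73). bam had 127 reads in male bodies and 1 in male heads on RD, a ratio of 120 with a counting interval of 21.2 to 4781. nos had 113 reads against 2, a ratio of 53.4 with an interval of 14.5 to 447. The late spermatogenesis markers stood at 0.135% in male heads by the same measure as above.

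**Figure D3:**
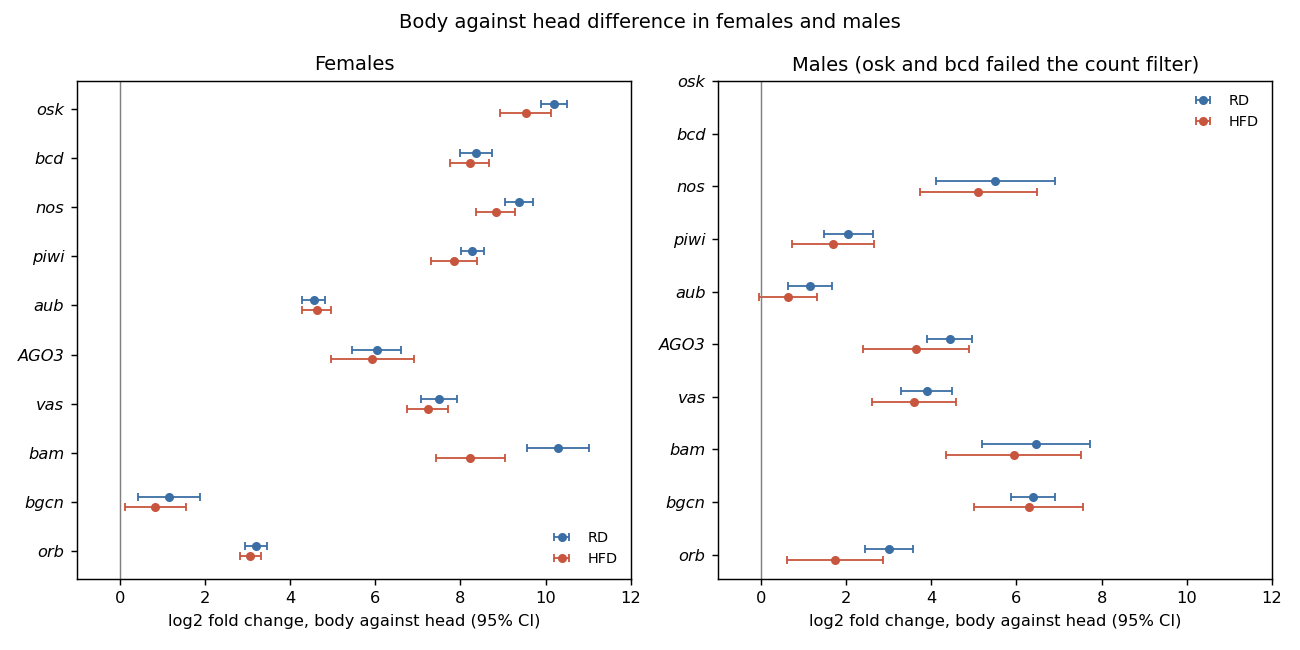
Log2 fold change of bodies against heads for the germline genes, in females (left) and males (right), on RD (blue) and HFD (red), with 95% confidence intervals from edgeR and 3 libraries per group. In females osk lay at 10.20 and bgcn at 1.16 on RD, while in males bgcn lay at 6.39 and aub at 1.16. In both sexes bgcn passed the count filter through the bodies only. osk and bcd are missing in males, where they failed that filter. The values of bam and of male nos rest on 1 to 5 reads in heads.

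Whether the body against head difference itself differed between the sexes was tested on RD as an interaction over 12 libraries. It was larger in females for 7 of the 10 genes and smaller for bgcn, where 34.2% of the 13458 genes tested were called larger and 30.9% smaller. osk and bcd failed the count filter in male bodies against heads, so here they passed it through the female libraries. The interaction on the log2 scale was 7.89 (SE 1.22, adjusted p = 9.51e-05) for osk, 6.64 (SE 0.27, adjusted p = 1.17e-09) for piwi and -4.82 (SE 0.39, adjusted p = 3.10e-07) for bgcn. orb (0.64, SE 0.29, adjusted p = 0.0719) and bam (4.11, SE 1.81, adjusted p = 0.0993) were not called. orb was called without male head RD 1 (0.87), and bam with DESeq2 (3.67) and without female head RD 4 (5.90). The call of nos (4.24) was lost without male head RD 1 (3.89) and without male head RD 2 (3.75), and the values of bam, nos, bcd and osk rest on 0 to 3 reads in each male head library.

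The comparison for which the flies were fed was HFD against RD. No germline gene was called in any of the 4 comparisons by edgeR or DESeq2, and 0 of them passed at an unadjusted p under 0.05 in edgeR. In female bodies all 10 genes were tested, in male bodies 8 (not osk and bcd), in female heads 6 and in male heads 4 (orb, piwi, aub and AGO3). Over all genes the test called 0.00% in female bodies, 0.00% in male bodies, 0.00983% in female heads (1 of 10175) and 0.00% in male heads. At an unadjusted p under 0.05 it passed 358 of 10282 genes in female bodies, 490 of 12935 in male bodies, 281 in female heads and 144 in male heads, and DESeq2 called 7, 28, 17 and 9 genes. In simulated counts edgeR's test recovered 91.5% of genes changed 4-fold in female bodies but 58.5% in male heads, so a missing call says less there.

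In female bodies the intervals were narrow for most of the genes. The log2 change with HFD was -0.04 for osk (SE 0.10, 95% interval -0.27 to 0.19), -0.04 for piwi (SE 0.07, interval -0.21 to 0.14), -0.05 for aub (SE 0.08, interval -0.25 to 0.15), 0.01 for orb (SE 0.09, interval -0.19 to 0.22), -0.07 for bcd (SE 0.12, interval -0.35 to 0.22), -0.10 for bam (SE 0.12, interval -0.38 to 0.18) and 0.04 for vas (SE 0.14, interval -0.29 to 0.36). nos alone had diets that did not overlap, if barely, with its highest HFD library and its lowest RD library both near 142 CPM. The share of all genes without overlap between diets was not computed, so nothing is read from this. The log2 change of nos was -0.18 (SE 0.09, interval -0.39 to 0.04, adjusted p = 0.936).

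AGO3 had the widest interval in female bodies, -1.11 to 0.52 around a log2 change of -0.29 (SE 0.35). The change was 0.03 without female body HFD 2, the library at 60.6 CPM. vas, which was highest in that library, had a change of -0.14 without it. For bgcn, at about 1 CPM, the change was -0.31 (SE 0.28, interval -0.97 to 0.36).

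In male bodies the log2 change ran from -0.10 for bgcn (SE 0.12, interval -0.38 to 0.18) to 0.30 for AGO3 (SE 0.23, interval -0.26 to 0.85). orb changed by 0.03 (SE 0.13, interval -0.28 to 0.35) and aub by -0.07 (SE 0.18, interval -0.51 to 0.37). All 8 overlapped between diets. In female heads the values lay between -0.23 for AGO3 and 0.58 for osk (SE 0.32, interval -0.15 to 1.32). In male heads orb had a value of 0.99 (SE 0.48, interval -0.16 to 2.14, adjusted p = 0.809) and AGO3 of 0.80 (SE 0.47, interval -0.33 to 1.93, adjusted p = 0.809). Both were highest in male head HFD 3, at 220 and 3.67 CPM, and without that library the values were 0.40 for orb and 0.29 for AGO3.

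**Figure D4:**
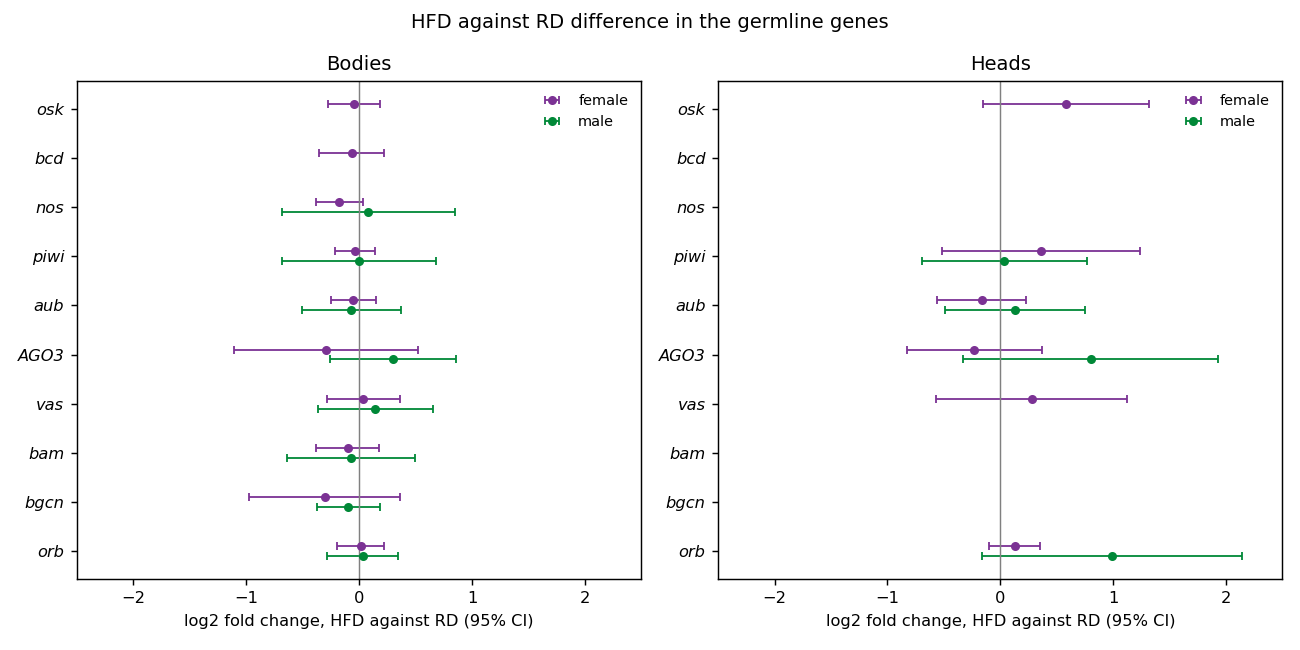
Log2 fold change of HFD against RD for the germline genes in bodies (left) and heads (right), with females in purple and males in green, 95% confidence intervals from edgeR and 3 libraries per group. Every interval drawn includes 0, and the widest are those of orb and AGO3 in male heads, at 0.99 and 0.80; genes without a point failed the count filter.

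No difference of the diet effect between the sexes was called by the interaction test for the 10 genes in bodies or the 7 tested in heads, where the test called 0.00% of 13425 genes in bodies and 0.00% of 10527 genes in heads, and 0 of the germline genes passed at an unadjusted p under 0.05. The interaction had 95% intervals that included 0 for all of them.

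The 10 genes were set beside 4 lists of further germline genes in bodies on RD, where 35.1% of all 13004 genes tested were higher in females and 49.3% lower. The filter on low counts by itself set the direction of part of the list counts. pgc and moon, at 0.140 and 0.144 CPM in male bodies, could pass it only through female bodies. nht and betaTub85D, at 0 and 0.094 CPM in female bodies, could pass it only through male bodies. How many list genes passed it in both sexes was not counted. Of the 27 listed genes of the piRNA pathway other than the 10, 24 were higher in females, 2 were lower and 1 was not called, with a median log2 difference of 2.36. The highest were rhi, whose product marks piRNA source loci in chromatin, at 6.56 (63.2 ± 3.48 against 0.669 ± 0.048 CPM, SD, n = 3), and moon, whose product recruits the transcription machinery there, at 6.30. The lowest were papi, at -1.17, and Hen1, at -0.56, both lower in females, whose products act when the ends of piRNAs are trimmed and methylated.

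Of 22 tested genes of the oocyte axis and germ plasm list, 19 were higher in female bodies, 2 were lower and 1 was not called, beside 35.1% higher and 49.3% lower over all genes, with a median of 2.43. pgc, a repressor of transcription in the pole cells of the embryo, differed by 10.27 (184 ± 9.13 against 0.140 ± 0.071 CPM, SD, n = 3), and yl, the yolk protein receptor of the oocyte, by 9.40. exu, whose product localises bcd mRNA, was lower in females by the log2 difference of -2.88 (184 ± 8.98 against 1372 ± 192 CPM, SD, n = 3), the reverse of bcd. BicC had the value -7.78, but it shares 94.8% of its exon bases with CG45084, so its row is uncertain.

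Of 16 genes of stem cells and cyst differentiation, which also act outside the germline, 10 were higher in female bodies (35.1% over all genes), 4 were lower (49.3%) and 2 were not called, with a median of 0.68. brat, a translational repressor that acts with Nanos and Pumilio, was the highest at 3.53 and Med the next at 1.96, while dpp, the signal of the ovarian stem cell niche, was at -1.43 and Rbfox1 at -0.96. Of 17 spermatocyte genes, 15 were lower in female bodies (49.3% over all genes), 1 was higher and 1 was not called, with a median of -6.03, which was the same with the 2 genes at 0 reads in females set to the bound that 3 reads give. betaTub85D, the testis beta-tubulin, was at 0.094 ± 0.048 CPM in female bodies and 1231 ± 127 CPM in male bodies (SD, n = 3), and nht was at 0 and 14.1 CPM. twe, a meiotic phosphatase, was higher in females at 0.49, and achi was lower at -0.51. With all 24 libraries in 1 fit, 0 spermatocyte genes were higher. Over all genes tested the median was -0.40. For diet, 0 genes of these lists were called in any of the 4 comparisons.

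**Figure D5:**
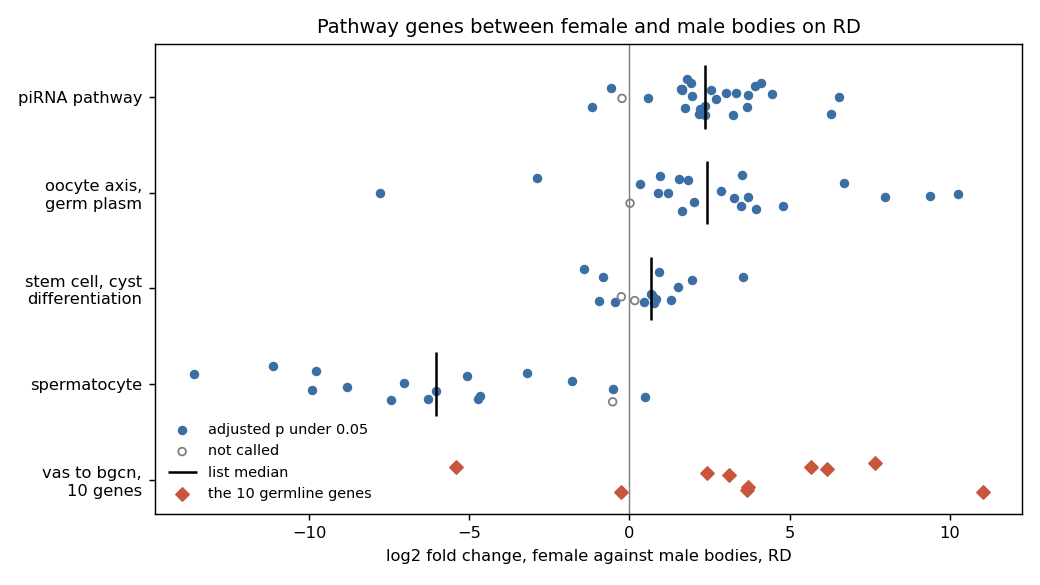
Log2 fold change of female against male bodies on RD for the genes of 4 lists and, as red diamonds, for the 10 germline genes. Filled blue points passed an adjusted p of 0.05, open grey points did not, and black bars are list medians (2.36, 2.43, 0.68 and -6.03 from top to bottom); vertical scatter within a row has no meaning.

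Markers of other cells moved with the sex comparison as well. The 16 late spermatogenesis genes summed to 10020 to 13790 CPM in male bodies and to no more than 0.386 CPM in female bodies, and the 12 accessory gland genes to 4546 to 8030 and no more than 0.893 CPM. The 20 eggshell genes summed to 381 to 2643 CPM in female bodies, with the lowest sum in female body RD 4 and the highest in female body HFD 4, and to 5.98 to 8.07 CPM in male bodies. osk in these same libraries was at 1153 and 1184 CPM. The part of these cells in the differences of the 10 genes was not tested.

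For each of the 10 genes, the 3 genes with the most similar pattern were found by Pearson's r of log2(CPM + 1) over the 24 libraries among 13820 genes. The 24 libraries fall into groups by sex and tissue, so a high r says mainly that a gene follows the same groups, and the values are given as a description. vas was closest to BoYb, pav and CG7091 (r = 0.997 to 0.996), nos to mtrm, zpg and otu (0.999 to 0.998), and osk to Cyp6a19, Pxt and CG11674 (0.999 to 0.997). bcd was closest to CG15047, gammaTub37C and CG32834 (all 0.998), and piwi to zpg, rod and clos (0.997 to 0.996). aub was closest to armi, nxf2 and piwi itself (0.996 to 0.994), where armi and nxf2 belong to the piRNA pathway list. AGO3 was closest to rpk, krimp and asp (0.992 to 0.988), and krimp belongs to that list too. bam was closest to CG9926, CG9925 and tum (all 0.997). bgcn was closest to CG8252, CG13540 and CG14691 (all 0.997), and orb to CG9992, ctrip and Imp (0.988 to 0.985), the lowest values of the 10.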

How the data were processed

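RNA was sequenced from pooled heads and bodies as paired reads with a stranded mRNA kit, and aligned by the authors with TopHat. Per the labels, the submitters' processing notes name the dm6 build and featureCounts, with no version or strand setting; the methods name a mouse annotation, which the fly gene symbols of the tables do not match. The deposited values are counts, whole numbers of reads per gene, not normalized, with a gene length column. TPM was computed from that column.

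The test was the quasi-likelihood test of edgeR 4.0.16 under R 4.3.3 (glmQLFit, glmQLFTest, TMM) on the genes that filterByExpr kept with its default minimum count (10) and total count (15). p was adjusted by Benjamini-Hochberg over all genes tested, and the threshold was 0.05. The SE is the log2 fold change divided by the square root of F. The 12 comparisons of 2 groups used their 6 libraries, and the 3 interaction tests used 12. Heads and bodies from the same pool of flies were not paired in these fits. The replicates are biological by the labels, and p-values measure the spread between these libraries. The members and lists were chosen with earlier results of these data known. All members are named, with the 3 most similar genes of each and, from each list, the 2 highest and 2 lowest genes by fold change; other list genes were named after their values were seen. Of 148 list genes, 147 matched a row. No library pair held identical counts. Same-numbered libraries were checked for shared deviations: their correlation was over 0.1 in all 3 pairs only for bodies against heads on HFD, in females (0.11 to 0.19) and in males (0.30 to 0.75). The alternatives were DESeq2 1.42.0, RLE size factors, total counts, genes with at least 1 count, a block for the replicate number, 1 fit of all 24 libraries, and each library left out. The test was checked on simulated counts, with 200 genes given a 4-fold change. On RD it recovered 94% of them for female against male bodies, 96.5% for female bodies against heads and 80.5% for sex by tissue. For HFD against RD it recovered 91.5% in female bodies and 58.5% in male heads. Names and positions are from Ensembl's BDGP6 annotation. Figures were drawn with matplotlib 3.10.9.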

Additional observations from a re-analysis of the deposited data

Results flagged for a closer look

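The difference between bodies and heads on RD differed between the sexes for 8 germline genes, by the interaction test in edgeR with Benjamini-Hochberg adjustment. Over all 13458 genes tested, 34.2% were called larger in females and 30.9% smaller. osk and bcd passed the filter on low counts through the female libraries only. On the log2 scale, female minus male, the interaction was 7.89 for osk, 7.09 for bcd, 6.64 for piwi, 4.24 for nos, 4.01 for vas, 3.81 for aub, 2.03 for AGO3 and -4.82 for bgcn. Of these, nos had the largest standard error (1.38, adjusted p = 0.0165), with 1, 1 and 0 reads in the male heads, and piwi the smallest (0.27, adjusted p = 1.17e-09). The call of nos was lost without male head RD 1 (3.89) and without male head RD 2 (3.75), at an adjusted p of 0.120 in both. Beside them, the 20 eggshell genes summed to 1.36% of their body level in female heads, and the 16 late spermatogenesis genes to 0.135% of theirs in male heads on RD; their part in these differences was not tested. With 3 libraries in a group, no search for outlying libraries was made.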

How the results depend on the processing

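The higher and lower calls of the germline genes between female and male bodies held under RLE size factors, total counts, every gene with at least 1 count, all 24 libraries in 1 fit and the replicate block. DESeq2 called 2 genes lower instead of 1 on both diets, adding orb. In heads on RD the replicate block called 1 gene lower (orb, -0.71). In heads on HFD, DESeq2 called 1 higher and 1 lower, and all 24 libraries in 1 fit called 2 higher (osk and nos, the latter at 2.50 with adjusted p = 0.0152) and 2 lower (orb and aub), where edgeR's fit of 6 libraries called 0. With each library left out, the genes called lower in bodies numbered 1 to 2 on RD and 1 to 2 on HFD, those called higher in heads 0 to 1 on RD and 0 to 1 on HFD, and those called lower in heads 0 to 1 on RD and 0 to 1 on HFD. Over all alternatives, 9 to 10 of the 10 genes called higher in female bodies than in heads on HFD remained called (bgcn was lost), as did 6 to 7 of the 7 in males (orb was lost) and 6 to 7 of the 7 larger interactions of sex and tissue (nos was lost). Genes newly called were aub, osk and bcd in males on HFD, osk and bcd in males on RD, and orb or bam in the interaction. The cause was not tested. Same-numbered libraries correlated over 0.1 in all 3 pairs only for bodies against heads on HFD, where the replicate block changed no call of the 10 genes. By the methods, bodies were picked from the same flies whose heads were sieved off, so head and body libraries came from shared pools. Which head library shares flies with which body library was not stated, and the main fits treat them as independent. The correlations do not settle it, since male body HFD 4 was closer to male head HFD 3 (0.44) than to male head HFD 4 (0.30). In the other comparisons the block changed only the call of orb in heads on RD.

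None of the log2 changes that changed sign was called, before or after. With total counts only, in male heads (HFD against RD) piwi became -0.12 and aub became -0.023, in male bodies (HFD against RD) orb became -0.020, in female bodies (HFD against RD) orb became -0.0044, in bodies (sex by diet) orb became 0.016, piwi became 0.012, aub became 0.053 and bam became 0.0063, in heads (sex by diet) osk became 0.011. With all genes of at least 1 count, in male heads (HFD against RD) piwi became -0.021. With 1 fit of all 24 libraries, in male heads (HFD against RD) piwi became -0.0027, in male bodies (HFD against RD) piwi became 0.00085, in female bodies (HFD against RD) orb became -0.011. With the replicate block, in male heads (HFD against RD) piwi became -0.059 and aub became -0.035, in male bodies (HFD against RD) bam became 0.043, in bodies (sex by diet) osk became -0.21, in heads (sex by diet) osk became 0.11. Leaving out each library in turn moved vas from -0.34 to 0.34 in heads on RD (female against male), AGO3 from -0.60 to 0.29 and piwi from -0.78 to 0.0014 in heads on HFD (female against male), piwi from -0.083 to 0.20 in male heads (HFD against RD), piwi from -0.31 to 0.18, nos from -0.14 to 0.31, orb from -0.032 to 0.093, bam from -0.21 to 0.089 and aub from -0.16 to 0.069 in male bodies (HFD against RD), piwi from -0.15 to 0.64, vas from -0.023 to 0.65 and AGO3 from -0.40 to 0.026 in female heads (HFD against RD), vas from -0.14 to 0.12, osk from -0.12 to 0.013, bcd from -0.16 to 0.040, AGO3 from -0.61 to 0.027, orb from -0.053 to 0.080 and bam from -0.19 to 0.015 in female bodies (HFD against RD), bcd from -0.88 to 0.56, bam from -0.18 to 0.057, orb from -0.16 to 0.017, piwi from -0.28 to 0.29, aub from -0.19 to 0.12 and osk from -0.25 to 0.51 in bodies (sex by diet), osk from -0.66 to 0.55, piwi from -0.18 to 0.61 and vas from -0.14 to 0.54 in heads (sex by diet). Low counts limit the values in heads: nos, bcd and bam had at most 8 reads in any head library and, between the sexes there, were tested only with all genes of at least 1 count and with 1 fit of all 24 libraries.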
